A study of Mus musculus with 8 samples.

Results

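The neuronal immediate early genes followed here in the cortex of 8 mice were *Fos*, *Fosb*, *Junb*, *Arc*, *Egr1*, *Egr2*, *Egr3*, *Egr4*, *Npas4* and *Nr4a1*. They were taken by gene name from the table of raw counts, where they are 10 of 54532 genes, and all 10 passed the count filter that left 17195 genes for testing. The mice were 8-mo-old and of the C57BL/6 strain, 4 *PS19* and 4 *Adrb1+/m;PS19*, with 1 library per mouse. All 8 mice, the controls included, carried the *PS19* transgene, a human 1N4R tau with the P301S mutation under the mouse prion promoter. The *Adrb1+/m;PS19* mice also carried 1 copy of the *Adrb1*-A187V knock-in allele, a change in the β1-adrenergic receptor. By the methods of the study the animals were male and the controls littermates, and no mice without the tau transgene were among these samples. The animals lived singly under a light-dark cycle. The clock time at which the tissue was taken, and what each animal was doing before, are not given in the sources used here. The comparison asked whether the mutant receptor was accompanied by another level of activity-regulated transcription, and the 8 mice were also used to ask how far these genes move together from animal to animal.

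Immediate early genes are switched on within minutes of strong synaptic input or growth factor signalling, from transcription factors that are already in the nucleus, and need no new protein to start. Most of their products are transcription factors that turn on later genes, whereas *Arc* encodes a protein of the synapse itself. Their RNAs are short-lived, so their level in a piece of cortex follows the recent activity of its neurons, and noradrenaline acting through β-adrenergic receptors is among the signals known to raise several of them.

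The libraries held 14653222 to 21223754 counts, and the 10 genes were read with 23 counts (*Egr2* in m677) to 6312 counts (*Egr1* in m665) per mouse. Levels are given as CPM, that is as counts scaled to a common library size with TMM factors. The 9 markers of cortical excitatory neurons were all detected and summed to 1605 to 1895 CPM in *PS19* mice and 1510 to 1682 CPM in *Adrb1+/m;PS19* mice. The 9 markers of striatal projection neurons were also all detected, with sums of 977 to 1950 CPM and 1021 to 2186 CPM. Both sets were detected and no other tissue was compared, so these sums do not test the tissue label. In bulk tissue, fewer cells of a type, fewer active cells and less RNA per cell cannot be told apart.

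The regulatory sequence in front of these genes carries the sites through which activity is known to reach them. CREB binds the cyclic AMP response element (CRE), serum response factor binds the CArG box, and the AP-1 and EGR proteins bind sites of their own. The 250 bases before the RefSeq start sites (GRCm38.p6) were searched on both strands in 7 of the 10 genes, *Fos*, *Fosb*, *Junb*, *Egr2*, *Egr4*, *Npas4* and *Nr4a1*, and *Arc*, *Egr1* and *Egr3* were not searched. The windows of *Fos*, *Egr2* and *Npas4* are shown because they belong to different families and hold different arrangements of these motifs. Capitals mark matches to the core of the CRE (TGACG or its reverse complement), the CArG box (in *Egr2*) and TATAAA (in *Fos*). For *Egr2*, which has 5 RefSeq start sites, the window with most matches is printed, the first of those with an equal number. They lie at chr12:85473640-85473889 on the plus strand for *Fos*, chr10:67537619-67537868 on the plus strand for *Egr2* and chr19:4989972-4990221 on the minus strand for *Npas4*.
Fos: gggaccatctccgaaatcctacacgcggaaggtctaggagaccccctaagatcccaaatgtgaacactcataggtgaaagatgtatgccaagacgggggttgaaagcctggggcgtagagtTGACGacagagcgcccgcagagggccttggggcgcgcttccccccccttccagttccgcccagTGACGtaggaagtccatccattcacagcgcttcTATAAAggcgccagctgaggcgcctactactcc
Egr2: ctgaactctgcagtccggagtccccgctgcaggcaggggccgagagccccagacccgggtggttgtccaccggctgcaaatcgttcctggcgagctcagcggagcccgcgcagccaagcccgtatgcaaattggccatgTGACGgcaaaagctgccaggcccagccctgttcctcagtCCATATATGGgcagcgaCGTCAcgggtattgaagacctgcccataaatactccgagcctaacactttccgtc
Npas4: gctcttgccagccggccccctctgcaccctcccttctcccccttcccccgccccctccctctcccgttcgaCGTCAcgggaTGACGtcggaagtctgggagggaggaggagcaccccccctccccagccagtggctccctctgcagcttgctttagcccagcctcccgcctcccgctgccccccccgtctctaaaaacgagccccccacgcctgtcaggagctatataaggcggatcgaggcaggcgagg

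All 7 genes had a CRE core in at least 1 window. Counted by window, 9 of their 11 windows held one, beside 17.8% of all 32851 windows of this length. Some windows of *Egr2* overlap, so the 11 are not independent. In *Fos* the matches began at -129 and -66, in *Npas4* at -179 and -169, and in the *Egr2* window at -111 and -55, counted from the start site on the printed strand. The full palindrome TGACGTCA, which contains the core, was in none of the 11 windows of these genes and in 1.55% of all windows. A CArG box was matched in 1 of the 7 genes, *Egr2*, and in the printed window it lay at -72 between the pair of CRE cores. By window it was in 4 of the 11, all of *Egr2*, and in 1.47% of all windows. TATAAA was matched in *Fos* alone (12.4% of all windows), the EGR site GCGGGGGCG in *Fosb* and *Nr4a1* (2.57%), and the AP-1 site TGAGTCA in none of the 7 (4.46%). These are matches of letters in a window and no measure of binding. Sequence beyond these 250 bases was not searched, so a motif not matched here may lie further away.

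Per kilobase of gene model, *Egr1* had the highest mean level of the 10 genes, with 52.2 ± 12.1 CPM per kb (SD, n = 8), and *Egr2* the lowest with 1.30 ± 0.677. *Egr3* followed with 40.7 ± 5.51, *Arc* with 38.8 ± 29.5, *Junb* with 24.4 ± 9.86, *Nr4a1* with 22.4 ± 11.2 and *Egr4* with 18.1 ± 4.60 CPM per kb. *Fos* had 7.27 ± 3.64, *Npas4* 3.91 ± 0.779 and *Fosb* 2.23 ± 0.343. From *Egr4* down to *Egr2* the order was the same in every mouse, since each gene exceeded the next in 8 of 8 mice. Above *Egr4* the order varied between mice: *Egr1* exceeded *Egr3* in 7 mice, *Egr3* exceeded *Arc* in 5, *Arc* exceeded *Junb* in 4, *Junb* exceeded *Nr4a1* in 6 and *Nr4a1* exceeded *Egr4* in 5.

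*Fos* (chromosome 12, 85473890 to 85477273), *Fosb* (chromosome 7, 19302696 to 19310051) and *Junb* (chromosome 8, 84974484 to 84978718) encode subunits of AP-1, the dimer in which a FOS protein pairs with a JUN protein. *Fos* was at 7.29, 23.2, 29.7 and 11.8 CPM in *PS19* mice m677, m668, m665 and m659, and at 27.2, 8.24, 14.2 and 15.1 CPM in *Adrb1+/m;PS19* mice m671, m661, m660 and m658. The 3 high mice, m665, m671 and m668, came from both genotypes, and the ranges overlapped. The log2 fold change of *Fos* in *Adrb1+/m;PS19* against *PS19* mice was -0.17 (SE 0.38, edgeR quasi-likelihood test, unadjusted p = 0.659). *Fosb*, whose product has an alternative form that accumulates with repeated stimulation, was at 11.8, 17.3, 15.3 and 15.9 CPM in the *PS19* mice and 13.8, 12.2, 11.3 and 13.5 CPM in the *Adrb1+/m;PS19* mice, in the same order of animals. *PS19* mice m668, m659 and m665 were above all 4 *Adrb1+/m;PS19* mice, and m677 lay among the latter. Its log2 fold change was -0.25 (SE 0.12, edgeR unadjusted p = 0.0576), the lowest unadjusted p of the 10 genes. *Junb* was at 42.6, 67.2, 84.8 and 29.9 CPM against 92.8, 45.8, 44.7 and 41.8 CPM. Here m671 was above every *PS19* mouse and the other 3 *Adrb1+/m;PS19* mice lay close together, and the log2 fold change was -0.0036 (SE 0.29, edgeR unadjusted p = 0.990). *Junb* overlaps *Prdx2* on the other strand, which was read at 141 to 154 CPM, and since the strand setting of the counting is not given in the sources used here, the *Junb* values are uncertain to that extent.

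The EGR genes encode zinc finger factors that bind GC-rich sites, and *Egr1* is the one most used as a marker of neuronal activity. *Egr1* was at 166, 276, 298 and 239 CPM in the *PS19* mice and 292, 159, 202 and 238 CPM in the *Adrb1+/m;PS19* mice. *Egr2*, known for myelination and also induced in neurons (chromosome 10, 67535475 to 67542188), was at 1.41, 6.97, 7.27 and 2.71 CPM against 6.54, 2.06, 3.81 and 4.58 CPM. The same 3 mice, m665, m668 and m671, were the highest in both genes, with log2 fold changes between genotypes of -0.14 (SE 0.18) and -0.13 (SE 0.43). *Egr3* (chromosome 14, 70077203 to 70082614) behaved otherwise, with 158, 190, 202 and 215 CPM against 178, 188, 143 and 159 CPM. Its highest mouse was m659, a low mouse for *Fos*, and its lowest was m660. The log2 fold change of *Egr3* was -0.20 (SE 0.095, edgeR unadjusted p = 0.0601). *Egr4* (chromosome 6, 85511121 to 85513589) was at 29.2, 54.9, 39.3 and 42.9 CPM against 48.9, 26.4, 31.3 and 38.7 CPM, highest in m668 and lowest in m661, and its log2 fold change was -0.20 (SE 0.19).

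*Arc* (chromosome 15, 74669083 to 74672570) encodes a dendritic protein that regulates removal of AMPA receptors from synapses. It was at 46.5, 171, 250 and 38.7 CPM in the *PS19* mice and 244, 92.6, 55.4 and 49.7 CPM in the *Adrb1+/m;PS19* mice. The 3 high mice were again m665, m671 and m668, and the range of the *Adrb1+/m;PS19* mice lay within that of the *PS19* mice. With a log2 fold change of -0.20 (SE 0.56), the 95% confidence interval ran from -1.41 to 1.01, which for *Arc* includes both a fall and a rise by a factor of 2. *Nr4a1* (chromosome 15, 101254269 to 101274795), which encodes an orphan nuclear receptor, was at 41.8, 109, 135 and 40.8 CPM against 129, 61.6, 60.5 and 52.4 CPM, and ranked the 8 mice in the same order as *Arc*. Its log2 fold change was -0.11 (SE 0.36). *Npas4* (chromosome 19, 4984355 to 4989971), a neuron-specific factor induced by calcium entry, was at 9.86, 13.3, 17.7 and 12.0 CPM against 13.5, 9.63, 12.4 and 14.0 CPM. Its highest mouse was m665 and its second highest was m658, a mouse in the lower part of the *Arc* order, and its log2 fold change was -0.11 (SE 0.17).

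**Figure D1:**
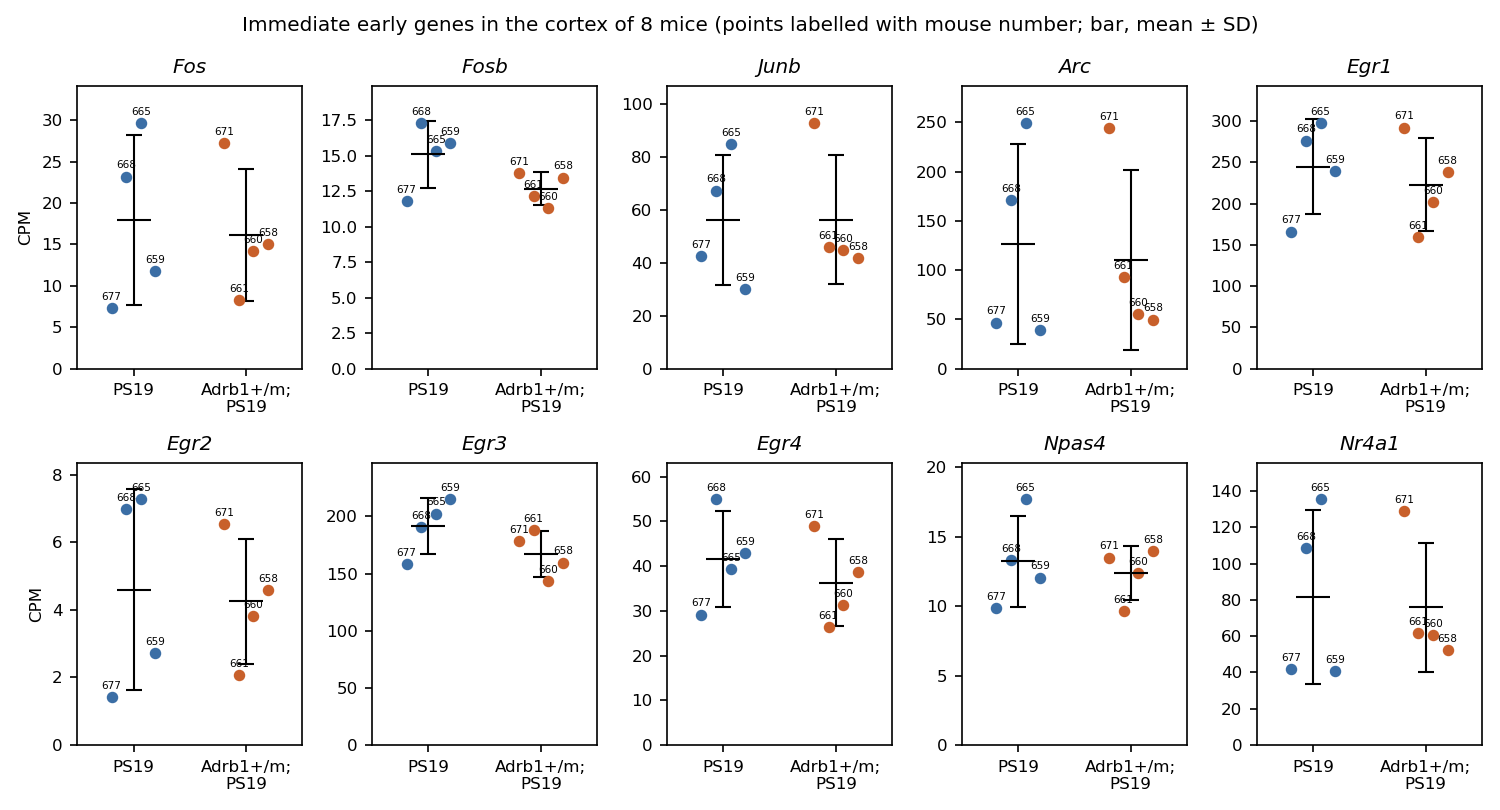
Level of each immediate early gene (CPM, y axis from 0, 1 panel per gene) in the 4 *PS19* (blue) and 4 *Adrb1+/m;PS19* (orange) mice. Points are mice labelled with their number, and the bar gives mean ± SD. The ranges of the genotypes overlap in all 10 panels, and m665, m671 and m668 (numbered in the panels) stand at the top in *Fos*, *Junb*, *Arc*, *Egr1*, *Egr2* and *Nr4a1*.

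Between genotypes, none of the 10 genes passed an unadjusted p under 0.05 in the edgeR quasi-likelihood test, beside 2.8% of the 17195 genes tested. The threshold is that of the study, which applied it with DESeq2. All 10 had an adjusted p of 0.9996 in edgeR (Benjamini-Hochberg). By DESeq2's Wald test 1 of the 10 passed the unadjusted threshold, *Egr3* (1.65% of the 33611 genes it tested), and by limma-voom 0 did (2.86% of 17195). The DESeq2 share is taken over more genes than those of edgeR and limma-voom, so it is not directly comparable with them. No gene of the 17195 passed an adjusted p under 0.05 with any of these tools. The ranges of CPM overlapped in 10 of 10 genes, while 2.02% of all genes did not overlap. All 10 point estimates were below 0, as were 49.8% of all genes, and their median was -0.15 on the log2 scale beside 0.00046 over all genes. The genes are not independent of each other over mice, and the shared sign rested on few animals: without m665 only 4 of the 10 estimates were below 0 and the median was 0.14. Without m677 the median was -0.33, and *Fosb* (-0.35, edgeR unadjusted p = 0.00633) and *Egr3* (-0.28, unadjusted p = 0.0063) passed the threshold (3.13% of all genes). The same pair passed without m671 (-0.29 and -0.23, 3.6% of all genes), and *Egr3* alone passed without m661 (-0.26, 3.86%). Without the filter on low counts 5 of the 10 passed, beside 4.06% of all genes, in a fit that tested nearly every gene with the same spread.

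**Figure D2:**
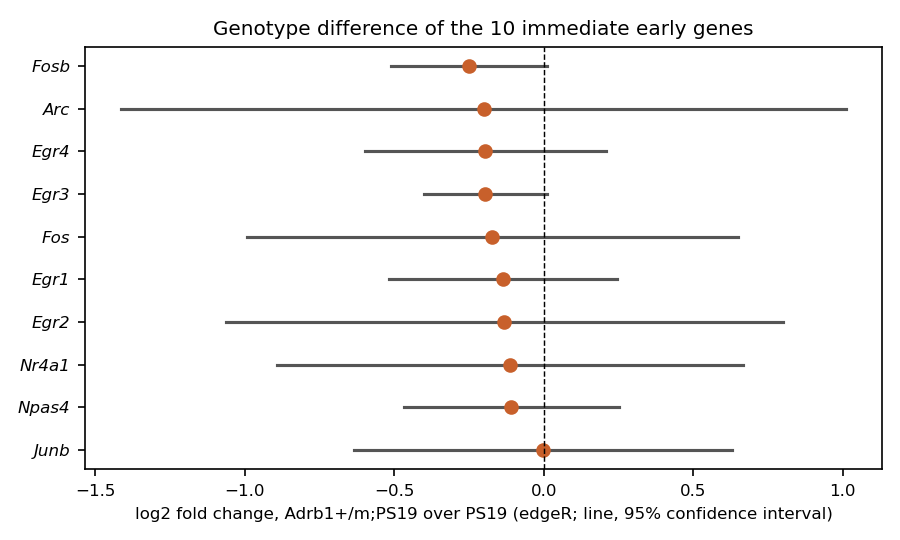
Log2 fold change of each gene in *Adrb1+/m;PS19* over *PS19* mice (x axis, edgeR) with its 95% confidence interval (line). All 10 intervals include 0, and they are narrowest for *Egr3* and *Fosb* and widest for *Arc* (-1.41 to 1.01).

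Most of the 10 genes varied widely between animals. The SD of log2 CPM over the 8 mice had a median of 0.47 for the 10 genes and 0.15 for all genes tested. *Arc* varied 6.45-fold from its lowest mouse (m659) to its highest (m665), and its SD of 1.11 was larger than that of 99.7% of genes. *Egr2* varied 5.16-fold (percentile 99.1), *Fos* 4.07-fold (98.4), *Nr4a1* 3.32-fold (97.8) and *Junb* 3.11-fold (94.3). *Egr4*, *Egr1* and *Npas4* varied 2.08-, 1.87- and 1.84-fold, at percentiles 82.6, 81.2 and 73.7. *Fosb* with 1.53-fold and *Egr3* with 1.5-fold were nearer to an ordinary gene, at percentiles 65.0 and 61.3. The biological coefficient of variation within genotypes gave the same picture, with 0.54 for *Arc*, 0.42 for *Egr2* and 0.10 for *Egr3*, where the median over all genes was 0.10.

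The variation was shared. Over the 8 mice all 45 pairs of the 10 genes had a positive Pearson correlation of log2 CPM, from 0.133 to 0.980 with a median of 0.668, while the median over all pairs of genes was -0.001. In an exact permutation test over the mice, 13 pairs had a Benjamini-Hochberg adjusted p under 0.05 over the 45 pairs by Pearson's r and 8 by Spearman's rho. The count by Pearson's r was 7 to 12 with 1 mouse left out, and 7 both without m677 and without m665. An r of at least 0.8 was reached by 28.9% of these pairs and by 1.09% of all gene pairs. The 45 pairs share the same 8 mice and are not independent of each other. The widest gap between neighbouring mice was 47.3% of the range in *Nr4a1* and at most 38.8% in the other genes, so the mice were taken as 1 set, and r is also given without the 2 mice farthest from the median of the first gene. In the mean of the 10 genes, given below as a score, the gap was 49.0%, with m665, m668 and m671 above it. Leaving out 2 mice does not remove all of these, so the part of this split in r was not tested.

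*Arc* and *Nr4a1* were the closest pair, with r = 0.980 (exact permutation p = 2.48e-05, adjusted p = 0.00112) and rho = 1 (p = 4.96e-05, adjusted p = 0.00223), both the smallest p these tests can give. Without the 2 mice farthest from the median of *Arc*, m665 and m671, r was 0.948. *Junb* joined them, with r = 0.962 to *Arc* (exact permutation p = 9.92e-05, adjusted p = 0.00149) and rho = 0.952 (p = 0.00114, adjusted p = 0.0128), and r = 0.901 without the same mice. *Fos* and *Egr2* made the other tight pair, with r = 0.977 (exact permutation p = 7.44e-05, adjusted p = 0.00149), rho = 0.976 (p = 0.000397, adjusted p = 0.00893) and r = 0.972 without m677 and m665. Around them stood *Egr1*, with r = 0.944 to *Fos* (exact permutation p = 0.00104, adjusted p = 0.00938) and rho = 0.905 (p = 0.00456, adjusted p = 0.0342), with r = 0.906 without m677 and m665. *Npas4* had r = 0.894 to *Fos* (exact permutation p = 0.00211, adjusted p = 0.0119), rho = 0.905 (p = 0.00456, adjusted p = 0.0342) and r = 0.812 without the same 2 mice. The sets were not separate. *Nr4a1* was also among the 13 pairs with *Fos* (r = 0.879, exact permutation p = 0.00714, adjusted p = 0.0292, rho = 0.786 with p = 0.0279 and adjusted p = 0.0898, r = 0.795 without m677 and m665) and with *Egr2* (r = 0.839, exact permutation p = 0.0143, adjusted p = 0.0494, rho = 0.762 with p = 0.0368 and adjusted p = 0.103, r = 0.943 without m677 and m661). *Fos* had r = 0.796 to *Junb* and 0.790 to *Arc*, with adjusted p of 0.0726 and 0.0784 in the exact permutation test. Other pairs across the sets had smaller values. *Arc* and *Egr1* had r = 0.631 (exact permutation p = 0.102, adjusted p = 0.189) and rho = 0.595 (p = 0.132, adjusted p = 0.248), and r dropped to 0.247 without m665 and m671. *Junb* and *Egr1* had r = 0.619 (exact permutation p = 0.107, adjusted p = 0.189), rho = 0.524 (p = 0.197, adjusted p = 0.295) and r = 0.195 without the same mice. *Egr3* was in none of the 13 pairs, and its highest r was with *Fosb* (0.768, exact permutation p = 0.0301, adjusted p = 0.0784, rho = 0.857 with p = 0.0107 and adjusted p = 0.0536), which was 0.752 without m668 and m660. Mouse m659 shows the divergence in single values: it was the lowest of 8 in *Junb*, *Arc* and *Nr4a1*, and among the 3 highest in *Egr3*, *Fosb* and *Egr4*.

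Within genotypes the correlation was as large. With each value taken as a deviation from its genotype mean, the median r over the 45 pairs was 0.697 and 6 pairs had an adjusted p under 0.05 (exact permutation within genotypes). Within genotypes *Arc* and *Nr4a1* had r = 0.981, *Fos* and *Egr2* 0.981, *Junb* and *Arc* 0.965 and *Fos* and *Egr1* 0.955, each with p = 0.00174, the smallest these permutations can give, and an adjusted p of 0.0130. Without the 2 mice farthest from the median of the first gene, r was positive in 43 of 45 pairs and at least 0.645 in all 13 pairs with an adjusted p under 0.05.

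**Figure D3:**
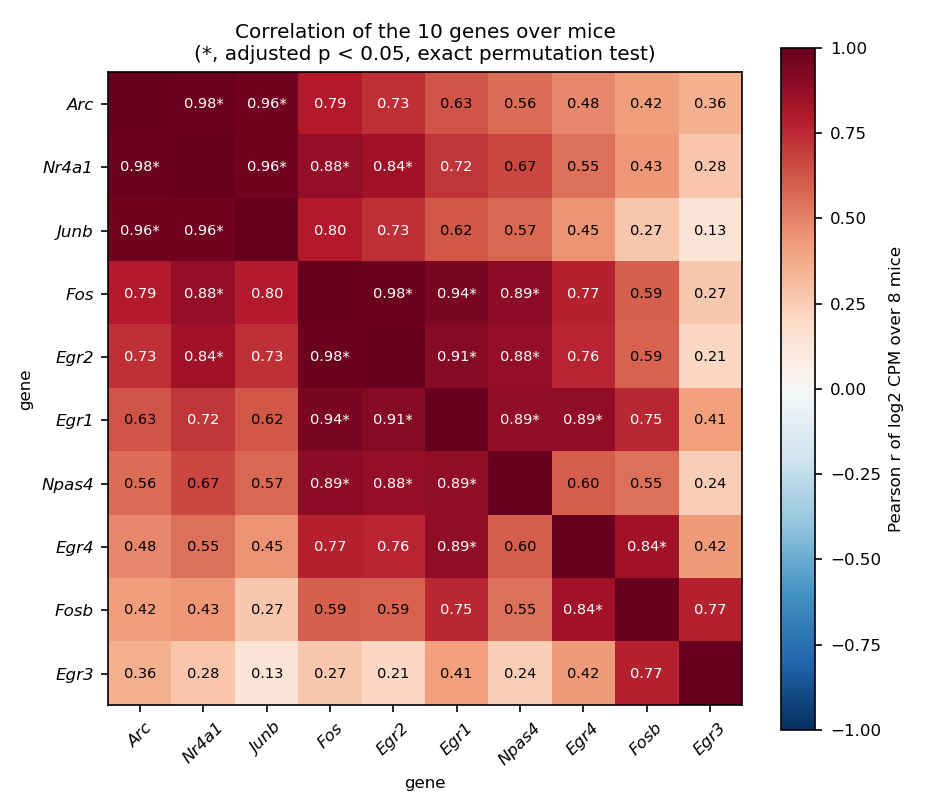
Pearson r of log2 CPM over 8 mice for each pair of the 10 genes (both axes, genes ordered by hand, colour from -1 to 1). Asterisks mark the 13 pairs with an adjusted p under 0.05 in the exact permutation test: all pairs among *Arc*, *Nr4a1* and *Junb* (upper left) and among *Fos*, *Egr2*, *Egr1* and *Npas4* (middle), *Nr4a1* with *Fos* and with *Egr2*, and *Egr4* with *Egr1* and with *Fosb*. *Egr3* has no asterisk.

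A score was made for each mouse as the mean over the 10 genes of log2 CPM minus the mean of the gene over the 8 mice. It was -0.60, 0.46, 0.62 and -0.30 in *PS19* mice m677, m668, m665 and m659, and 0.55, -0.36, -0.24 and -0.13 in *Adrb1+/m;PS19* mice m671, m661, m660 and m658. *PS19* mice m665 and m668 and *Adrb1+/m;PS19* mouse m671 stood above the other 5, and the gap between m668 and m658 was 49.0% of the range. A gene's r with the score, computed without that gene's own part, is used below as a measure of likeness over 8 mice and carries no test. It was 0.956 for *Fos*, 0.935 for *Nr4a1*, 0.906 for *Egr2*, 0.875 for *Egr1*, 0.849 for *Junb* and 0.845 for *Arc*, so that 6 of the 10 reached 0.8, beside 1.71% of all genes tested. *Npas4* had 0.785, *Egr4* 0.707, *Fosb* 0.599 and *Egr3* 0.341, rank 4032 of 17195 genes.

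**Figure D4:**
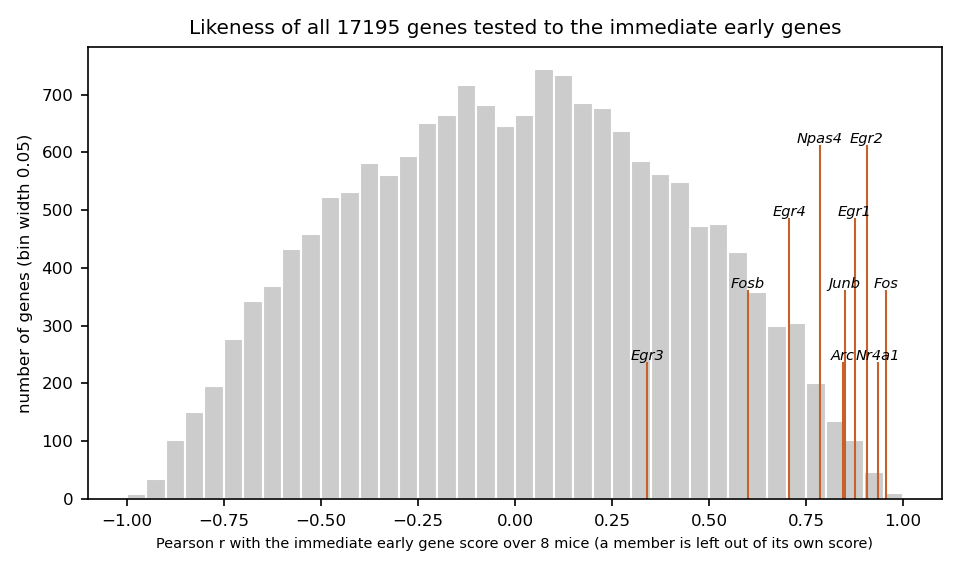
Number of genes (y axis, bins of 0.05) by their Pearson r with the immediate early gene score over 8 mice (x axis), for all 17195 genes tested. Orange lines mark the 10 genes, each left out of its own score: 6 lie beyond 0.8 in the right tail and *Egr3* (0.341) lies within the bulk.

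Among all other genes with a mean of at least 1 CPM, those most like the score were *Ier5l* (r = 0.978), *Dusp6* (0.976), *Hspb11* (0.972), *Arl4d* (0.968), *Ric8a* (0.963), *Smad7* (0.958), *1700016P03Rik* (0.957), *Ier5* (0.956), *Asb2* (0.955) and *Rgs4* (0.954). *Ier5* and its relative *Ier5l* are themselves immediate early response genes, *Dusp6* encodes a phosphatase of the ERK kinases, and *Rgs4* and *Ric8a* encode regulators of G proteins. *Dusp6* ranged from 36.7 CPM in m677 to 78.6 CPM in m665, and *Rgs4* from 366 to 512 CPM. The noncoding *1700016P03Rik* (chromosome 11, 75172560 to 75177633, 2.29 to 7.08 CPM) holds the *Mir212* and *Mir132* genes on its own strand, at 75173388 to 75173478 and 75173682 to 75173747, and miR-132 is known to be induced through CREB in neurons. In edgeR all 10 stayed above the threshold of 0.05 between genotypes, the largest log2 fold change being -0.22 (SE 0.38) for *1700016P03Rik*. At the other end stood *Fbf1* (r = -0.966), *1700096K18Rik* (-0.965), *Gm12063* (-0.963), *Htra3* (-0.962) and *Stc2* (-0.958). These were as strongly opposed as the first were alike, and 1.72% of all genes had an r of -0.8 or below, as many as at the positive end. With 8 mice, such values therefore occur in both tails, and a single gene in this list is no finding.

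Other activity-regulated genes were taken from 4 lists by role, 66 genes in all. Of these, 5 (7.58%) had an unadjusted p under 0.05 in edgeR, beside 2.8% of all genes, all 5 lower in *Adrb1+/m;PS19* mice (1.37% of all genes), and none passed adjustment. The count of 5 ran from 3 to 11 with 1 mouse left out (11 without m677) and was 9 without the filter on low counts. Markers of cortical excitatory neurons were lower as well in 3 of 9 genes, *Slc17a7* (-0.19), *Tbr1* (-0.13) and *Neurod6* (-0.27), with *Foxp2* higher (0.30), and of 8 interneuron markers *Gad2* (0.24) and *Slc32a1* (0.18) were higher and *Vip* lower (-0.19), all under an unadjusted p of 0.05 in edgeR and none after adjustment. The other interneuron markers, *Gad1* (0.059), *Pvalb* (0.016), *Sst* (-0.089), *Lhx6* (0.055) and *Adarb2* (0.0019), had an unadjusted p above 0.05 in edgeR. The part of these cell types in the values of the activity-regulated genes was not tested. Among the 5 activity-regulated genes were 3 effectors that neurons secrete or need for secretion. *Pcsk1*, which encodes a prohormone convertase, was at 67.9, 60.0, 71.7 and 72.2 CPM in *PS19* mice m677, m668, m665 and m659 and at 50.7, 56.4, 59.3 and 60.4 CPM in *Adrb1+/m;PS19* mice m671, m661, m660 and m658. Only m668 and m658 overlapped, and the log2 fold change was -0.26 (SE 0.073, edgeR unadjusted p = 0.0032), under the threshold in each of the 12 alternatives run. *Bdnf*, the neurotrophin, was at 26.7, 29.7, 29.9 and 34.6 CPM against 23.9, 25.6, 27.5 and 28.1 CPM (-0.20, SE 0.088, edgeR unadjusted p = 0.0383), and *Vgf*, a secreted neuropeptide precursor, had -0.20 (SE 0.090, unadjusted p = 0.0436). *Dusp4*, another MAP kinase phosphatase, was at 13.7 to 14.2 CPM in *PS19* mice and at 13.0, 10.8, 7.67 and 12.0 CPM in *Adrb1+/m;PS19* mice, which did not overlap (-0.36, SE 0.14, edgeR unadjusted p = 0.0206). *Fosl2*, the remaining one, is an AP-1 subunit (-0.16, SE 0.069, edgeR unadjusted p = 0.0336). Single mice decided 4 of these 5 calls. The call of *Dusp4* was lost without m660 (-0.22), that of *Bdnf* without m668, m665, m659, m671 or m661 (-0.21 to -0.13), that of *Fosl2* without m668, m665, m671, m661 or m660 (-0.16 to -0.12) and that of *Vgf* without m668, m659, m661 or m660 (-0.17 to -0.13).

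None of these 5 genes reached an r of 0.8 with the immediate early gene score, and the values were -0.22 for *Pcsk1*, -0.05 for *Bdnf*, 0.48 for *Vgf*, 0.27 for *Dusp4* and 0.61 for *Fosl2*. Over the 4 lists 17 of 66 genes reached r = 0.8, beside 1.71% of all genes tested. The largest share was in the list of feedback signalling and RNA decay genes, with 9 of 15. Named after their values were seen, these 9 were *Dusp1*, *Dusp5* and *Dusp6* (MAP kinase phosphatases), *Sik1*, *Spry2*, *Plk2*, *Rgs2*, *Trib1* and *Errfi1*, with r from 0.806 to 0.976. The rest of the list ran from -0.27 (*Zfp36*) to 0.75 (*Spry4*), and *Gadd45g* had -0.06. The score of this list over the 8 mice had r = 0.975 and rho = 0.976 with the immediate early gene score and r = 0.952 without the 2 mice farthest from the median of the list score. Of 19 other rapid transcription factors 4 reached 0.8 (*Ier5*, *Per1*, *Klf10* and *Nfil3*, 0.820 to 0.956), and the list score had r = 0.873 (0.671 without its 2 farthest mice). Not all of them did so: *Jun*, which pairs with FOS proteins, was at 62.2, 49.9, 43.4 and 63.0 CPM in the *PS19* mice and 52.2, 41.5, 54.0 and 52.4 CPM in the *Adrb1+/m;PS19* mice, lowest in m661 and m665, with r = -0.45. *Nr4a2*, the relative of *Nr4a1*, had r = -0.61. Of 16 effectors and late-response genes 3 reached 0.8 (*Tiparp*, *Gpr3* and *Rasgrp1*), with r = 0.703 for the list score (0.483 without its 2 farthest mice). Of 16 inducing kinases and transcription factors, the machinery upstream, 1 did (*Camk4*, 0.851), with r = 0.327 for the list score, -0.205 without its 2 farthest mice, and a median r of -0.064 over its genes.

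**Figure D5:**
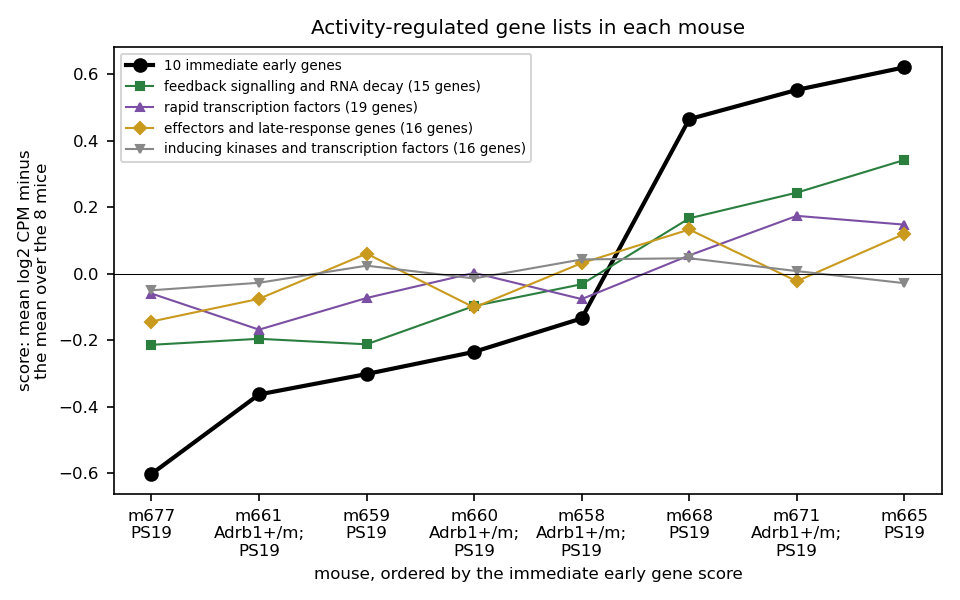
Score of the 10 immediate early genes (black) and of 4 lists of other activity-regulated genes (colours) in each mouse (x axis, ordered by the black line; y axis, mean log2 CPM minus the mean over the 8 mice). The feedback signalling and RNA decay genes (green) run parallel to the black line with a smaller range (-0.21 to 0.34), and the inducing factors (grey) stay between -0.05 and 0.05.

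Other measures moved with the score to differing degrees, and their part in it was not tested. The striatal projection neuron markers, whose median log2 fold change between genotypes was 0.34 (9 of 9 above 0, 1 passing the threshold, *Tac1*), had r = 0.715 with it (0.494 without the 2 mice farthest from the median of the list score), and m671 and m668 had the highest sums, 2186 and 1950 CPM. Next came m658 with 1836 CPM, where the immediate early gene score was -0.13, and m665, the mouse with the highest score, had 1381 CPM. The astrocyte markers had r = -0.645 (rho = -0.333), and r = -0.888 without their 2 farthest mice, with none of 6 at 0. Their sums were 1779, 1144, 1080 and 1895 CPM in *PS19* mice m677, m668, m665 and m659 and 1279, 1123, 1920 and 1779 CPM in *Adrb1+/m;PS19* mice m671, m661, m660 and m658. The 3 mice with the highest immediate early gene score were among the 4 lowest sums, with m661, whose score was -0.36. *Gfap* weighs heavily in these sums, with 182 CPM in m661 and 838 CPM in m660, while *Slc1a3* ran from 483 to 589 CPM. *Aldh1l1* went otherwise and was highest in m661 (68.5 CPM) and m671 (65.3 CPM). The r of single astrocyte markers with the score ran from -0.883 (*Slc1a3*) to -0.197 (*Aldh1l1*). The microglia markers had r = -0.460 and -0.814 without their 2 farthest mice. The same 2 values were 0.527 and 0.282 for cortical excitatory neurons, -0.029 and -0.704 for interneurons, -0.334 and -0.538 for endothelial and mural cells, 0.301 and 0.257 for dentate granule cells, 0.074 and 0.040 for oligodendrocytes, and 0.040 and -0.187 for choroid plexus. Between genotypes 4 of 9 excitatory markers (3 lower) and 3 of 8 interneuron markers (1 lower) passed the unadjusted threshold, beside 2.8% of all genes. Genes under control of the circadian clock had r = -0.047, which was 0.774 without their 2 farthest mice, and glucocorticoid-responsive genes r = -0.490 and -0.306, with 0 of 10 and 0 of 9 tested genes passing between genotypes in edgeR. With 8 mice, several of these values therefore rest on 2 animals. The total count of a library had r = 0.0502 and the mitochondrial share of counts, 4.58% to 5.31%, r = -0.271.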

How the data were processed

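Cortical total RNA of 8 mice, 4 *PS19* and 4 *Adrb1+/m;PS19* by the labels' genotype, was sequenced paired-end. The authors aligned the reads to GRCm38 with HISAT2 2.0.5, counted them per gene with featureCounts 1.5.0-p3 and deposited the raw counts without normalization, and the strand and multiple-mapping settings are not given in the sources used here. Names, coordinates and gene lengths are those of the deposited table. With 14653222 to 21223754 counts per mouse, the members were counted 23 to 6312 times.

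Genotypes were compared with edgeR 4.0.16 (glmQLFit, glmQLFTest, 2-sided, TMM, filterByExpr, 17195 of 54532 genes) under R 4.3.3. P-values were Benjamini-Hochberg adjusted over the genes tested, and counts used the study's unadjusted p under 0.05. Each SE is the log2 fold change divided by the square root of F. Correlations used log2 CPM with a prior count of 2 and exact permutation of the mice (40320 pairings). Alternatives were DESeq2 1.42.0, limma-voom (limma 3.58.1), DESeq2 size factors, no filter beyond 1 count, prior counts of 0.5 and 5, deviations within genotype, a standardized score and each mouse left out. In simulated counts of 16931 genes with 191 changed 2-fold, edgeR gave 97.4% of these an unadjusted and 82.2% an adjusted p under 0.05, and 4.70% of the others an unadjusted one. The changed genes were drawn from all genes tested, whose median biological coefficient of variation was 0.10. These shares therefore do not carry over to the more variable members, such as *Arc* (0.54) and *Egr2* (0.42). Replicate libraries differed by 4.83 to 9.95 times counting noise (chi-square per degree of freedom).

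The members, the lists and the markers were chosen with earlier results of these data known. Named beside the members were *Jun* and *Bdnf*, up to 3 genes with the lowest unadjusted p under 0.05 in each of 4 activity-regulated lists, and the 10 genes with the highest and the 5 with the lowest r with the score. Further names were chosen after their values were seen or stand for a list. Promoter windows are from RefSeq (GRCm38.p6).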

Additional observations from a re-analysis of the deposited data

Results flagged for a closer look

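Of 30 sets of 4 mice examined for a single mouse far from the other 3, 2 had one, which is near the share of about 1 in 20 that chance gives. Both concern m671 among the *Adrb1+/m;PS19* mice. In *Junb* it was at 92.8 CPM and the other 3 at 41.8 to 45.8 CPM, so that the gap took 0.921 of the range of the group. In *Nr4a1* it was at 129 CPM and the others at 52.4 to 61.6 CPM, with a gap of 0.88 of the range, both above the critical value of Dixon's test for 4 values. In both genes *PS19* mouse m665 had a like level (84.8 and 135 CPM).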

How the results depend on the processing

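No paired analysis was possible because the sample names tie no mouse of one genotype to one of the other. The number of immediate early genes under an unadjusted p of 0.05, 0 in edgeR, was 1 with DESeq2, 5 without the count filter (*Fosb*, *Arc*, *Egr1*, *Egr3* and *Egr4*, beside 4.06% of all genes) and 0 to 2 with 1 mouse left out. Without the filter the fit gave 3685 in place of 13.5 degrees of freedom, so that the genes were tested with nearly 1 common spread, and the SE of *Arc* was 0.073 in place of 0.56 at a log2 fold change of -0.20. The median log2 fold change ran from -0.36 (without m671) to 0.14 (without m665) and was negative in the other alternatives. The count of other activity-regulated genes, 5, was 9 without the filter and 3 to 11 with 1 mouse left out (11 without m677). *Junb* was above 0 with DESeq2 (0.0045), limma-voom (0.0058) and no filter (2.44e-05). With 1 mouse left out *Junb* ran from -0.35 to 0.28, *Arc* from -0.94 to 0.38, *Egr2* from -0.43 to 0.21, *Nr4a1* from -0.49 to 0.26, *Fos* from -0.54 to 0.20 and *Npas4* from -0.22 to 0.074, each highest without m665. Of 192 values for single genes, 145 kept direction and side of the threshold, 20 turned, 15 lost and 12 gained the call. Correlated pairs, 13, were 6 within genotypes and 7 to 12 with 1 mouse left out, 7 without m677 or m665, and the median r stayed between 0.608 and 0.759. Of the 10 genes most like the score, 5 remained with standardized values, and 2 (without m665) to 6 with 1 mouse left out. The causes of these shifts were not tested, apart from the spread named above. Depth limits *Egr2*, with as few as 23 counts in a mouse, more than *Arc* and *Fos*, with at least 642 and 119.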
